A study of Mus musculus with 20 samples.

Results

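The genes described here are the inhibitors of cyclin-dependent kinases and the p53 axis, 10 of the 22660 genes in the count table, each taken as the row that carries its symbol. They are the 3 CIP/KIP inhibitors Cdkn1a, Cdkn1b and Cdkn1c, the 4 INK4 inhibitors Cdkn2a, Cdkn2b, Cdkn2c and Cdkn2d, and the 3 genes of the p53 axis Trp53, Mdm2 and Ccng1. RNA was sequenced from the plantaris, a fast muscle of the hindlimb, of 20 male C57BL/6J mice labelled as 2 years old. Mice received either mechanical overload (MOV), in which parts of the gastrocnemius and soleus were cut away so that the plantaris carried their load, or a sham operation that only opened the skin. Within each surgery, mice were gavaged with vehicle or with D + Q, which is dasatinib at 5 mg/kg, a kinase inhibitor, together with quercetin at 50 mg/kg, a plant flavonoid. Each of the 4 combinations of surgery and gavage had 5 mice, all different animals, and muscles were collected at day 14. The treatment protocol gives the gavage days as 7 and 10, whereas in the design text sham mice received their second gavage on day 14, so the interval from the last dose to collection is uncertain in sham mice. The labels name no transgene or deletion, and with neither a young group nor an ungavaged one, age and gavage itself could not be compared.

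Progression of the cell cycle is driven by cyclins bound to cyclin-dependent kinases (CDKs). INK4 proteins bind CDK4 and CDK6, CIP/KIP proteins bind cyclin-CDK complexes more broadly, and p53 raises transcription of Cdkn1a as well as of Mdm2, whose product degrades p53, and of Ccng1, the gene of cyclin G1. Because lasting expression of p21 (Cdkn1a) and p16 (Cdkn2a) is used to recognise senescent cells, and because p21 and p57 (Cdkn1c) also take part when myoblasts leave the cell cycle to differentiate, these messages have more than 1 possible source in loaded muscle. Senolytic drugs such as D + Q are given to remove senescent cells, and the comparison of D + Q with vehicle asks whether these messages were lower after treatment.

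Positions below are in GRCm39. Cdkn1a lies at chr17:29309936-29319701 on the plus strand, and Cdkn1c lies at chr7:143012069-143014806 on the minus strand. Cdkn2a (chr4:89192708-89212890) and Cdkn2b (chr4:89223204-89229276) are neighbours on the minus strand of chromosome 4. Trp53 spans chr11:69469669-69482701 on the plus strand, Mdm2 chr10:117524780-117546730 on the minus strand and Ccng1 chr11:40639377-40646148 on the minus strand. Cdkn2a has 2 annotated starts that share the 341-base exon 2 at chr4:89194882-89195222. The p16Ink4a message begins with a 207-base exon at chr4:89200223-89200429, and the p19Arf message begins with a 320-base exon at chr4:89212571-89212890. The deposited table holds 1 value for the gene, so a Cdkn2a count sums both messages and cannot be split into p16Ink4a and p19Arf.

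Upstream sequence is shown for some of the start sites, although the counts are per gene and do not tell which start was used. The start sites shown belong to 3 genes known as targets of p53 that did not move alike (Cdkn1a, Mdm2 and Ccng1) and to Cdkn2a. Both starts are shown for Cdkn2a and only the upstream start for Cdkn1a. RefSeq windows of 250 bases before a start (table build GRCm38.p6, placed on GRCm39 by an exact match) were found for 9 of the 10 genes, 12 windows in all, and each is shown only where it lies outside annotated exons of protein-coding genes. Capitals mark matches to the p53 half-site in the first 3 sequences and to the GC box (GGGCGG, on the printed strand or its complement) in the fourth, while the fifth holds a match to neither. They are Cdkn1a at chr17:29309703-29309935 (plus strand), Mdm2 at chr10:117546731-117546913, Ccng1 at chr11:40646149-40646363, and Cdkn2a upstream of p19Arf at chr4:89212891-89213106 and upstream of p16Ink4a at chr4:89200430-89200679 (the last 4 on the minus strand).
Cdkn1a: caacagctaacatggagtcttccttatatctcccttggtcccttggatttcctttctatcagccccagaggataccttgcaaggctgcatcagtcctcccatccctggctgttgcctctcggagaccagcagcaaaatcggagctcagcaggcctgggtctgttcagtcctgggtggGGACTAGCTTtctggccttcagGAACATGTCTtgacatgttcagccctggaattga
Mdm2: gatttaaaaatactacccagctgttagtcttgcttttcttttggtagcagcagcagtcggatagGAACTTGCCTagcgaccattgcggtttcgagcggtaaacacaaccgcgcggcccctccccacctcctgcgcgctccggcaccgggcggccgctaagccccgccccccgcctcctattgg
Ccng1: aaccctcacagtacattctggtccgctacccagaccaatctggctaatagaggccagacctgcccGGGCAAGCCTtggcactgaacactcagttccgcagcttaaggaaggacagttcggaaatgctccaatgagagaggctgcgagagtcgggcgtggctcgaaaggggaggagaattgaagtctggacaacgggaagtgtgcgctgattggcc
Cdkn2a, p19Arf start: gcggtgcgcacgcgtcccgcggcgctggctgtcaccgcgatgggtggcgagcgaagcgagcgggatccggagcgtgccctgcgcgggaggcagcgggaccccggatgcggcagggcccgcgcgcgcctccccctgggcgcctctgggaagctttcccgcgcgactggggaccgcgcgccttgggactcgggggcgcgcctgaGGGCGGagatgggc
Cdkn2a, p16Ink4a start: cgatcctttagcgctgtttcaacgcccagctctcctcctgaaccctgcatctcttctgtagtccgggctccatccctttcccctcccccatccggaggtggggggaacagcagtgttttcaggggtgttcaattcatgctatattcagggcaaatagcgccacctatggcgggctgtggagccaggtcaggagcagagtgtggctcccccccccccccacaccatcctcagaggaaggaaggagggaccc
The Cdkn1a window at chr17:29312493-29312742, further downstream and not shown, held 2 GC boxes and no half-site. In the Cdkn1a window shown, half-sites began 73 and 51 bases before the RefSeq start. A half-site began 186 bases before the start for Mdm2 and 185 bases before it for Ccng1. Windows of Trp53 (75 bases before the start) and Cdkn2d (102 bases) also held 1. A half-site was thus found in 5 of the 12 windows, against 7.13% of the 32851 mouse windows of that length. Known targets of p53 are among the members by choice, so this share is not a test of them. Of the 12 windows, 6 held a GC box (32.7% of all windows), 5 a CCAAT box (CCAAT, 33.8%), 3 an E-box (CANNTG, 66.2%) and 1 a TATA box (TATAAA, 12.4%). Neither the AP-1 site (TGANTCA, 6.75%) nor TTTCGCGC, a form of the E2F site (0.256%), was matched in any of the 12, on either strand. These matches describe letters in short windows, not bound sites.

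Total counts were 17887532 to 26234518 per mouse, and no pair of libraries of a group was as alike as sampling noise would make 1 library deposited again. Levels are given as CPM, read counts scaled to a fixed library size with TMM factors over all 20 mice, and differences as log2 fold changes with their standard error (SE) from edgeR's quasi-likelihood test, called at an adjusted p under 0.05. MOV muscle differed from sham muscle in most genes. With vehicle, 60.5% of 14601 tested genes were called, 30.7% higher and 29.8% lower in MOV. With D + Q, 65.3% of 14913 were called, 34.4% higher and 30.9% lower. Scaling by library totals alone moved the median log2 fold change of all genes from -0.015 to 0.36 with vehicle and from 0.023 to 0.39 with D + Q, and turned the calls into 7683 higher and 1453 lower with vehicle and 8392 higher and 1654 lower with D + Q. Changes below are therefore relative to the TMM scale, and every member whose direction differs on the other scale is named as such.

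Markers of several cell types in whole muscle differed as well. The 8 muscle fibre markers had a summed level of 128003 to 149495 CPM in sham mice and 74920 to 107925 CPM in MOV mice, and none of them was at 0 in all mice. The lower sum was mainly that of Myh4, the fast IIb myosin heavy chain, whose mean went from 58525 to 19709 CPM with vehicle. Of the 8 fibre markers 3 were called lower and 1 higher (Myh2) with vehicle, 4 lower and 2 higher with D + Q, so that the list did not move as a group. The 6 markers of satellite cells and myoblasts went from a sum of 40.6 to 56.5 CPM to 73.1 to 89.7 CPM with vehicle, and from 44.7 to 55.4 CPM to 65.6 to 80.4 CPM with D + Q. Of these 6, 4 were called higher with either treatment and 1 lower with D + Q. With D + Q, Mymk reached the count minimum only in MOV mice, so its call was bound to be a rise. Without Mymk, 3 of 5 were called higher and 1 lower with D + Q. Myog, a factor of differentiating myoblasts, went from 1.73 ± 0.359 to 20.0 ± 3.45 CPM with vehicle (SD, n = 5). The 5 fibroblast markers were all called higher in MOV with either treatment, their sum going from 363 to 536 CPM in vehicle sham to 4451 to 8956 CPM in vehicle MOV, and from 443 to 947 CPM in D + Q sham to 8030 to 10927 CPM in D + Q MOV. All 7 macrophage markers were likewise called higher, from 48.0 to 127 CPM to 256 to 763 CPM with vehicle and from 51.9 to 138 CPM to 550 to 659 CPM with D + Q. Of the 14 genes of cycling cells, 11 of the 13 tested were called higher in each comparison. With vehicle 3 of these, and with D + Q 2, reached the count minimum only in MOV mice, so their calls were bound to be rises. Without them 8 of 10 were called higher with vehicle and 9 of 11 with D + Q. The part of these shifts in the changes of the inhibitors was not tested, and in RNA of whole muscle a change in the number of cells of a type and a change in RNA per cell cannot be told apart.

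The 10 genes were spread over a wide range of levels. Per kilobase of the canonical transcript, Ccng1 was the highest in every group, at 288 ± 11.8 CPM per kb in vehicle sham and 175 ± 14.8 CPM per kb in vehicle MOV (SD, n = 5). Mdm2 came next in sham muscle, at 21.0 ± 1.18 CPM per kb with vehicle (SD, n = 5), and every sham mouse had more Mdm2 per kb than Cdkn1b, Cdkn1a or Cdkn1c. With vehicle these last 3 lay together in sham muscle at 8.81 to 8.97 CPM per kb, and with D + Q they were at 11.5 ± 1.33 (Cdkn1c), 10.2 ± 3.10 (Cdkn1a) and 8.64 ± 0.780 (Cdkn1b) CPM per kb (SD, n = 5). In MOV muscle Cdkn1a and Cdkn1c moved above Mdm2, at 29.4 ± 3.88 and 25.3 ± 4.18 CPM per kb with vehicle (SD, n = 5), without being separable from each other, and in vehicle MOV the lowest Cdkn1c value was not above the highest Mdm2 value. Cdkn2b and Cdkn2a had the lowest means in each group. Each sham mouse had less Cdkn2a than Cdkn2b per kb. The ranges of both genes overlapped in MOV muscle and in D + Q sham, but not in vehicle sham.

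**Figure D1:**
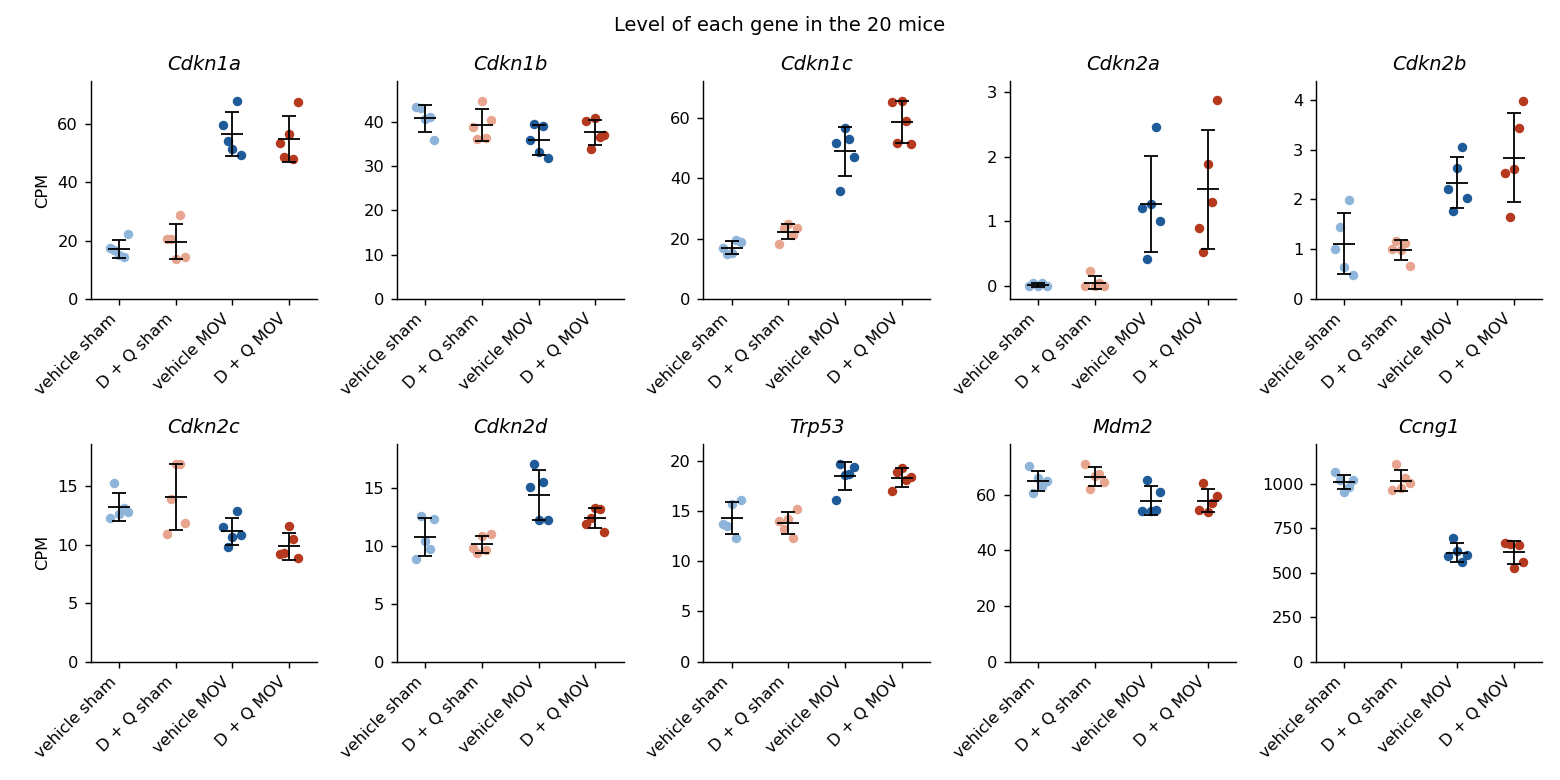
Level of each of the 10 genes in CPM (vertical axis, linear and starting at 0 except for Cdkn2a, whose error bars reach below it) for the 5 mice of each group, with 1 point per mouse and the mean ± SD as a black bar. Cdkn1a, Cdkn1c and Cdkn2a are higher and Ccng1 lower in every MOV mouse than in every sham mouse of the same treatment, and the vehicle and D + Q points overlap within each surgery for all 10 genes.

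With vehicle, MOV muscle had more Cdkn1a, Cdkn1c and Cdkn2b, with ratios of mean CPM of 3.29, 2.87 and 2.11, more Cdkn2d and Trp53, with ratios of 1.34 and 1.29, and less Ccng1 than sham muscle. Of the 10 members 9 passed the count minimum in this comparison, and 5 were called higher and 1 lower, beside a background of 60.5%. Cdkn2a did not reach 10 counts in 5 mice and was not tested. The groups did not overlap for 3 of the 9 tested (Cdkn1a, Cdkn1c and Ccng1), beside 46.5% of all genes tested. The share called among the members was near that of all genes, so that the sizes and directions below, rather than the number of calls, describe them.

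Cdkn1a encodes p21, the CIP/KIP inhibitor that p53 induces. Its level was 17.3, 16.7, 15.2, 14.2 and 22.3 CPM in the 5 vehicle sham mice and 59.7, 54.2, 51.2, 67.9 and 49.4 CPM in the 5 vehicle MOV mice. Every MOV mouse was above every sham mouse. Cdkn1a rose by 1.73 ± 0.121 on the log2 scale (SE, edgeR adjusted p = 5.01e-08, 5 mice per group), a ratio of mean CPM of 3.29, and the exact permutation p of 0.007937 (two-sided, adjusted p = 0.0289 over 40 tests) was the smallest that the divisions of 10 mice into 5 and 5 can give.

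Cdkn1c encodes p57, a CIP/KIP inhibitor that is expressed from the maternal allele and is prominent in differentiating muscle. It was at 17.0, 14.8, 15.1, 19.4 and 18.7 CPM in vehicle sham mice and at 51.7, 35.9, 56.7, 53.1 and 46.9 CPM in vehicle MOV mice. The groups did not overlap, and replicate 2 of vehicle MOV was the lowest of its group. Cdkn1c rose by 1.54 ± 0.120 on the log2 scale (SE, edgeR adjusted p = 1.20e-07). The same mouse also had the lowest summed fibroblast markers (4451 CPM) and macrophage markers (256 CPM) of its group, and the part of these cells in its Cdkn1c value was not tested. Cdkn1c shares 589 exonic bases with Gm44732 on the opposite strand, whose group means were 0.0951 to 0.174 CPM, and whether counting used strand is not given in the sources used here, so a small part of the Cdkn1c count may belong to it.

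Cdkn1b encodes p27, the CIP/KIP inhibitor that is controlled largely through protein degradation. It lay at 40.8 ± 3.04 CPM in vehicle sham and 35.9 ± 3.44 CPM in vehicle MOV (SD, n = 5), with overlapping groups. The difference of -0.17 ± 0.0802 on the log2 scale (SE, 95% confidence interval -0.34 to -0.0013) did not pass the adjusted test (edgeR adjusted p = 0.0758), and it became 0.21 (edgeR adjusted p = 0.0490) when libraries were scaled by totals alone. Cdkn1b was called lower by limma-voom (-0.20, adjusted p = 0.0329) and in the edgeR fit of all 20 mice (-0.19, adjusted p = 0.0386), so both its call and its direction depend on the setting.

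Among the INK4 genes, Cdkn2a was close to absent from sham muscle. In vehicle sham it had 0, 1, 0, 1 and 0 counts in the 5 mice, and in vehicle MOV 30, 8, 27, 56 and 24 counts, that is, 1.20, 0.415, 1.27, 2.45 and 1.01 CPM. Every MOV mouse was above every sham mouse, and replicate 2 was again the lowest of the MOV mice. Over the 5 mice, 145 counts in MOV stood against 2 in sham, a ratio per scaled library of 57.5 with an exact 95% counting interval of 15.6 to 479, which covers counting error only. The exact permutation p was 0.007937 (two-sided, adjusted p = 0.0289 over 40 tests), the smallest that these divisions can give.

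Cdkn2b encodes p15, an INK4 inhibitor that responds to TGF-beta. It was at 1.01, 1.44, 0.644, 1.98 and 0.471 CPM in vehicle sham and at 2.21, 1.76, 2.64, 3.06 and 2.03 CPM in vehicle MOV. Replicate 4 of vehicle sham lay above the lowest MOV mouse, so the groups overlapped. The rise of 1.084 ± 0.335 on the log2 scale (SE, edgeR adjusted p = 0.0110) rested on 8 to 34 counts per sham mouse and 34 to 70 counts per MOV mouse, and lay between 0.89 and 1.39 when 1 mouse was left out.

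Cdkn2c (p18) and Cdkn2d (p19Ink4d) were expressed at like levels and moved in different ways. Cdkn2d was at 10.8 ± 1.62 CPM in vehicle sham and 14.4 ± 2.15 CPM in vehicle MOV (SD, n = 5) and rose by 0.43 ± 0.127 on the log2 scale (SE, edgeR adjusted p = 0.00808), with overlapping groups. Cdkn2c was at 13.2 ± 1.18 CPM in vehicle sham and 11.1 ± 1.14 CPM in vehicle MOV (SD, n = 5), a difference of -0.23 ± 0.101 that did not pass the test (edgeR adjusted p = 0.0585) and that was 0.15 on the scale of library totals.

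In the p53 axis, Trp53 itself, the gene of p53, was at 13.7, 13.5, 15.7, 12.3 and 16.1 CPM in vehicle sham and at 16.1, 19.7, 18.6, 18.6 and 19.3 CPM in vehicle MOV. Only the lowest MOV mouse reached into the sham range. Trp53 rose by 0.38 ± 0.0944 on the log2 scale (SE, edgeR adjusted p = 0.00249). Its neighbour Wrap53, with which it shares 28 exonic bases on the opposite strand, had group means of 4.51 to 4.99 CPM.

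Mdm2, the p53 ubiquitin ligase, did not follow Cdkn1a. It was at 65.0 ± 3.66 CPM in vehicle sham and 57.8 ± 5.13 CPM in vehicle MOV (SD, n = 5), a difference of -0.16 ± 0.0716 on the log2 scale (SE, edgeR adjusted p = 0.0716). Scaled by library totals alone the difference was 0.22 (edgeR adjusted p = 0.00466), so its direction depends on the scale. On the TMM scale it was called lower by limma-voom (-0.19, adjusted p = 0.0178) and in the edgeR fit of all 20 mice (-0.17, adjusted p = 0.0280).

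Ccng1, whose product cyclin G1 is part of the feedback between p53 and Mdm2, fell. The 5 vehicle sham mice had 1065, 1021, 956, 985 and 1024 CPM, and the 5 vehicle MOV mice had 592, 696, 623, 558 and 598 CPM. No MOV mouse reached the sham range. Ccng1 fell by 0.71 on the log2 scale (SE 0.0765, edgeR adjusted p = 1.70e-06), to 0.607 of the sham level, and the difference was still -0.33 on the scale of library totals (edgeR adjusted p = 0.000208). It had the most counts of the 10 genes, with 12327 or more in every mouse. Of the 8 fibre markers, Myh4, Ckm and Actn3 were also called lower, while Myh2 was called higher and 4 were not called. The part of fibres in the fall of Ccng1 was not tested. Nudcd2, which overlaps 114 exonic bases of Ccng1 on the opposite strand, was at 10.8 ± 0.897 CPM in vehicle sham and 14.3 ± 1.42 CPM in vehicle MOV (SD, n = 5), far below Ccng1 in both.

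In D + Q mice the comparison of MOV with sham used 10 other animals. All 10 members were tested, 6 were called higher and 3 lower, beside 34.4% and 30.9% of all genes, and the groups did not overlap for 7 of the 10, beside 53.2% of all genes. Cdkn2a passed the count minimum only through the MOV mice, so that its call as higher and its lack of overlap were bound to follow. Both the 6 called higher and the 7 without overlap include it. Those called higher were Cdkn1a, Cdkn1c, Cdkn2a, Cdkn2b, Cdkn2d and Trp53, and those called lower were Cdkn2c, Mdm2 and Ccng1.

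Cdkn1a was at 20.7, 20.5, 13.8, 28.6 and 14.5 CPM in D + Q sham mice and at 53.3, 48.6, 56.5, 48.1 and 67.6 CPM in D + Q MOV mice. The groups did not overlap, although sham values were more scattered than with vehicle. Cdkn1a rose by 1.53 ± 0.198 on the log2 scale (SE, edgeR adjusted p = 7.86e-05). Cdkn1c was at 18.3, 23.6, 24.8, 21.1 and 23.5 CPM in D + Q sham and at 65.3, 51.6, 65.6, 59.0 and 51.5 CPM in D + Q MOV. It rose by 1.45 ± 0.0921 (SE, edgeR adjusted p = 1.18e-09), again with no overlap. Cdkn1b was the 1 member that was not called, at 39.3 ± 3.55 CPM in D + Q sham and 37.7 ± 2.83 CPM in D + Q MOV (SD, n = 5). On the scale of library totals Cdkn1b was called higher (0.35, edgeR adjusted p = 0.000783), so its call depends on the scale.

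Cdkn2a had 0, 4, 0, 1 and 0 counts in D + Q sham mice and 23, 14, 44, 29 and 65 counts in D + Q MOV mice. Every MOV mouse was above every sham mouse. Summed, 175 counts stood against 5, a ratio of 28.03 per scaled library with a 95% counting interval of 11.8 to 87.4. The exact permutation p was 0.007937 (two-sided, adjusted p = 0.0289), the smallest possible. Cdkn2b, its neighbour, was at 0.997, 1.16, 0.975, 1.12 and 0.662 CPM in D + Q sham and at 2.54, 1.64, 2.61, 3.44 and 3.98 CPM in D + Q MOV. Here the groups were separate, and Cdkn2b rose by 1.57 ± 0.263 on the log2 scale (SE, edgeR adjusted p = 4.26e-05).

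Cdkn2c fell by 0.47 on the log2 scale with D + Q (SE 0.128, edgeR adjusted p = 0.00384), from 14.1 ± 2.81 to 9.87 ± 1.15 CPM (SD, n = 5), but only by 0.10 on the scale of library totals (edgeR adjusted p = 0.535). Cdkn2d rose by 0.34 ± 0.0907 (SE, edgeR adjusted p = 0.00324) and Trp53 by 0.46 ± 0.0785 (SE, edgeR adjusted p = 5.83e-05), both without overlap of the groups. Mdm2 fell by 0.15 (SE 0.0609, edgeR adjusted p = 0.0353), a call that was kept in 3 of the 10 fits without 1 mouse, where the adjusted p lay between 0.0165 and 0.101, and that turned to a rise of 0.21 on the scale of library totals. Ccng1 was at 965, 1115, 976, 1033 and 1004 CPM in D + Q sham and at 665, 661, 527, 658 and 560 CPM in D + Q MOV, without overlap, and fell by 0.68 (SE 0.0759, edgeR adjusted p = 4.00e-07).

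**Figure D2:**
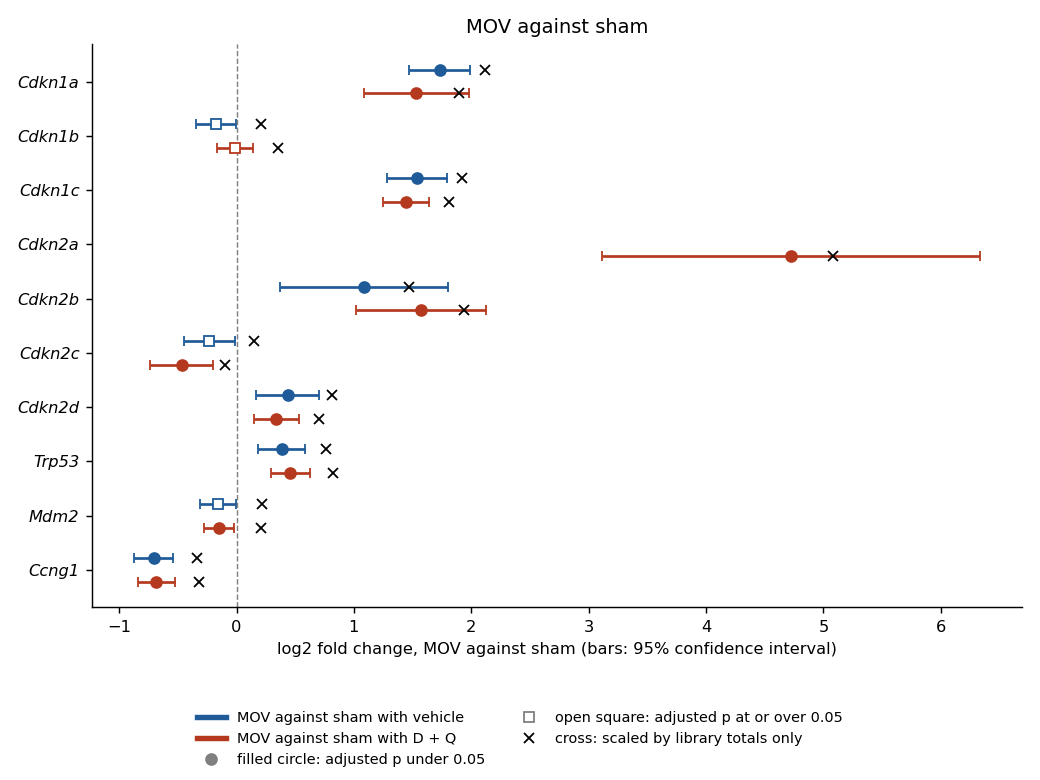
Log2 fold change of MOV against sham (horizontal axis) for the 10 genes (vertical axis) in vehicle mice (blue) and D + Q mice (red), with 95% confidence intervals as bars, 5 mice per group, and black crosses for the same value on the scale of library totals. Cdkn1a at 1.73 and 1.53 and Cdkn1c at 1.54 and 1.45 lie far right of 0 on both scales, Ccng1 lies left of 0 on both, and the crosses of Cdkn1b and Mdm2 are on the other side of 0 from their TMM values. Cdkn2a has no vehicle point because it was not tested there.

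No member was called between D + Q and vehicle in MOV muscle. The edgeR test called 0 of the 10 members and 0% of all 15238 genes, DESeq2 called 0 of the 10 and 11 genes in all, limma-voom called 0 of the 10, and 1 member (Cdkn1c) had an unadjusted p under 0.05, beside 8.79% of all genes. For no member were the groups separate, beside 1.5% of all genes. These comparisons use the same MOV and sham mice as those above.

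For the messages used as senescence markers, the values give limits rather than a fall. Cdkn1a was at 56.5 ± 7.47 CPM in vehicle MOV and 54.8 ± 7.92 CPM in D + Q MOV (SD, n = 5). The difference was -0.051 ± 0.103 on the log2 scale (SE), with a 95% confidence interval of -0.27 to 0.17 (edgeR adjusted p = 0.891). Cdkn2a had 175 counts in D + Q MOV against 145 in vehicle MOV, a ratio per scaled library of 1.12 with a counting interval of 0.897 to 1.41. Both groups spanned a wide range, from 8 to 56 counts with vehicle and from 14 to 65 counts with D + Q, and the log2 difference of 0.21 had an interval of -0.79 to 1.22 (edgeR adjusted p = 0.900). Without replicate 2 of vehicle MOV, its lowest mouse, the Cdkn2a difference was -0.0037, and without replicate 5 of D + Q MOV, its highest, it was -0.16, so a single mouse sets its sign.

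Cdkn1c had the smallest p of the members between treatments in both surgeries, and passed the adjusted edgeR test in neither. In MOV muscle its mean was 48.9 ± 8.06 CPM with vehicle and 58.6 ± 6.97 CPM with D + Q (SD, n = 5), a difference of 0.25 ± 0.115 on the log2 scale (SE, interval 0.0068 to 0.50, edgeR unadjusted p = 0.0448, adjusted p = 0.558). The 3 highest MOV mice were all D + Q mice (65.6, 65.3 and 59.0 CPM), but the other 2 D + Q mice lay within the vehicle range. Without replicate 2 of vehicle MOV the difference was 0.16 (edgeR adjusted p = 0.834). In sham muscle the mean was 17.0 ± 2.06 CPM with vehicle and 22.2 ± 2.57 CPM with D + Q (SD, n = 5), a difference of 0.38 ± 0.0957 (SE, interval 0.17 to 0.58, edgeR adjusted p = 0.150), and the exact permutation p was 0.0238 (two-sided, adjusted p = 0.0595). DESeq2 called it at an adjusted p of 0.0429, and across all 8 alternative fits the adjusted p ran from 0.0429 to 0.256.

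Fibroblast markers also had higher values with D + Q, though none was called. Of the 5 markers 4 were higher at an unadjusted p under 0.05 in MOV muscle and 4 in sham muscle, beside 8.79% and 10.2% of all genes in either direction. The medians of the summed level were 7402 and 9331 CPM in vehicle and D + Q MOV and 417 and 620 CPM in vehicle and D + Q sham. The highest sham value of Cdkn2a (4 counts, D + Q replicate 2) also belonged to the sham mouse with the highest summed fibroblast markers (947 CPM) and macrophage markers (138 CPM). The part of these cells in either gene was not tested.

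**Figure D3:**
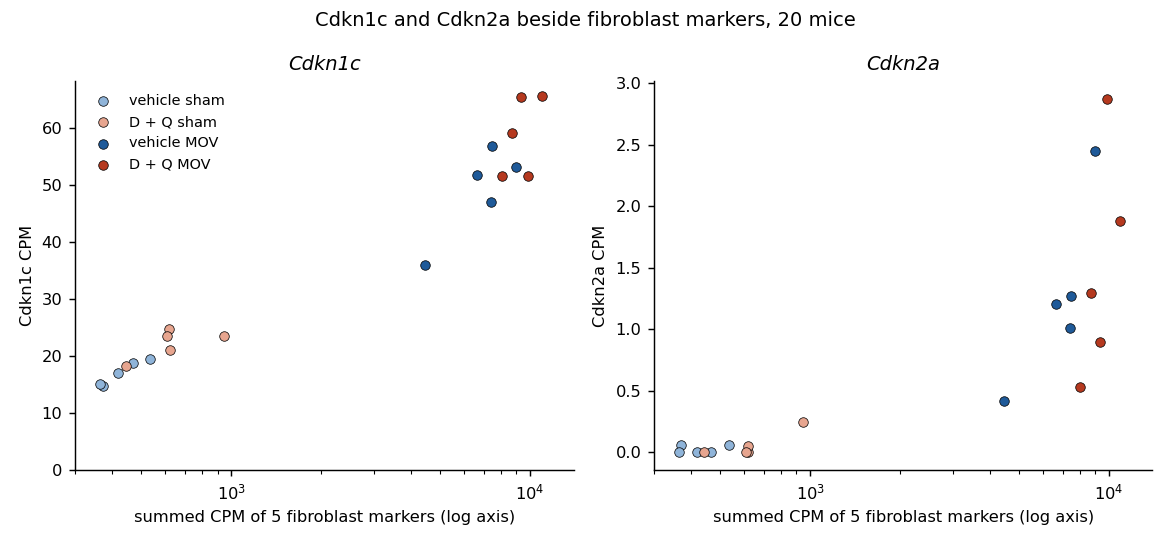
Cdkn1c (left) and Cdkn2a (right) in CPM (vertical axes, linear) against the summed CPM of 5 fibroblast markers (horizontal axes, log scale) in the 20 mice, coloured by group. Sham mice lie at or below 947 CPM of markers and MOV mice at or above 4451 CPM, replicate 2 of vehicle MOV is the leftmost MOV point in both panels, and replicate 2 of D + Q sham is the rightmost sham point.

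The other members differed little between treatments in MOV muscle. Cdkn2d was lower in D + Q MOV, at 12.4 ± 0.883 CPM against 14.4 ± 2.15 CPM (SD, n = 5), a difference of -0.22 ± 0.106 on the log2 scale (SE, edgeR adjusted p = 0.563), and Cdkn2c differed by -0.18 ± 0.107 (SE, edgeR adjusted p = 0.626). The difference of Cdkn2b was 0.27 ± 0.237 (SE, edgeR adjusted p = 0.743), and 0.12 without replicate 5 of D + Q MOV, its highest mouse. For Trp53 the interval was -0.18 to 0.15, for Mdm2 -0.17 to 0.16, for Ccng1 -0.21 to 0.20 and for Cdkn1b -0.10 to 0.23, so that larger changes than these in either direction lay outside the interval for each.

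In sham muscle, D + Q and vehicle were compared for 9 members, since Cdkn2a had 5 and 2 counts in all. The edgeR test called 0 of the 9, beside 0.215% of 13926 genes, and 1 (Cdkn1c) had an unadjusted p under 0.05, beside 10.2% of all genes. DESeq2 called 1 of the 9, Cdkn1c, and 133 genes in all. The groups overlapped for all 9, beside 2.12% of all genes that were separate. Cdkn1a differed by 0.18 ± 0.206 on the log2 scale (SE, interval -0.28 to 0.64), and without the D + Q sham mouse at 28.6 CPM (replicate 4) the difference was 0.0046. Ccng1 had the narrowest interval, -0.11 to 0.11.

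**Figure D4:**
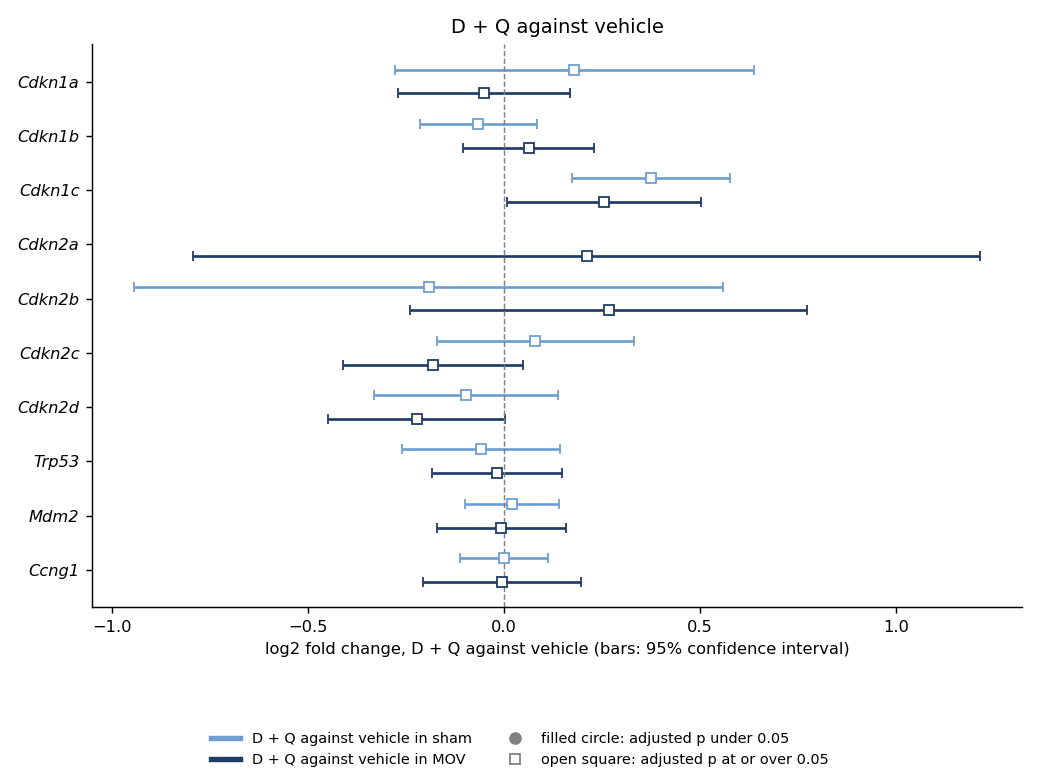
Log2 fold change of D + Q against vehicle (horizontal axis) for the 10 genes (vertical axis) in sham muscle (light blue) and MOV muscle (dark blue), with 95% confidence intervals as bars, 5 mice per group. All points are open squares (adjusted p at or over 0.05), and Cdkn1c, at 0.38 and 0.25, is the 1 gene whose intervals both lie right of 0. Cdkn2a has no sham point because it was not tested there.

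Whether the response to MOV differed between treatments was tested with an interaction term over all 20 mice. It called 0 of the 10 members, with 0 at an unadjusted p under 0.05, and 2 of 15700 genes overall (0.0127%, and 5.71% at an unadjusted p under 0.05), and DESeq2 also called 0 of the 10. The term was -0.24 ± 0.239 for Cdkn1a (SE, interval -0.74 to 0.27), -0.13 ± 0.159 for Cdkn1c (interval -0.46 to 0.20) and 0.037 ± 0.118 for Trp53 (interval -0.21 to 0.28) on the log2 scale. For Cdkn2a it had an interval of -4.29 to 2.65, too wide to describe the gene.

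Genes around the inhibitors and p53 were read from lists that group genes by function. Of 22 other p53 target genes, 11 were called higher and 5 lower in MOV with vehicle, beside 30.7% and 29.8% of all genes. Their median log2 fold change was 0.42, beside -0.015 for all genes. D + Q mice had 10 higher and 5 lower, beside 34.4% and 30.9% of all genes, the median being 0.34. With vehicle, Pmaip1 and Pidd1 reached the count minimum only in MOV mice, so their calls were bound to be rises, and without them 9 of 20 were higher and 5 lower, with a median of 0.32. Pmaip1, of the apoptotic branch, had 1 to 5 counts per vehicle sham mouse and 33 to 107 per vehicle MOV mouse. Apaf1, of the same branch (1.80 ± 0.214, SE, edgeR adjusted p = 4.33e-06), and Btg2, an antiproliferative gene (1.58 ± 0.375, SE, edgeR adjusted p = 0.00522), rose. Those with the largest falls were Tigar, a regulator of glycolysis (-0.996 ± 0.0765, SE, edgeR adjusted p = 7.16e-08), Rrm2b, a ribonucleotide reductase subunit (-0.84 ± 0.115, SE, edgeR adjusted p = 1.85e-05), and Ei24 (-0.55 ± 0.0633, SE, edgeR adjusted p = 3.45e-06). Targets of p53 thus moved in both directions, as Cdkn1a and Ccng1 did and as the tested genes at large did. On the scale of library totals 17 were called higher and 3 lower with vehicle and 14 higher and 2 lower with D + Q, and Aen and Polk changed sign.

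Genes that act on p53 were measured for 13 of the 14 on the list. With vehicle 3 were called higher and 6 lower in MOV, beside 30.7% and 29.8% of all genes. With D + Q the counts were 4 and 5, beside 34.4% and 30.9% of all genes. Atm, the kinase that signals DNA breaks to p53, fell by 1.07 (SE 0.171, edgeR adjusted p = 6.91e-05), the kinase Hipk2 by 0.73 (SE 0.235, edgeR adjusted p = 0.0212) and the acetyltransferase Ep300 by 0.64 (SE 0.0892, edgeR adjusted p = 1.94e-05). The checkpoint kinases Chek1 (0.85 ± 0.355, SE, edgeR adjusted p = 0.0480) and Chek2 (0.62 ± 0.257, SE, edgeR adjusted p = 0.0470) rose, as did Trp53bp1 (0.37 ± 0.0888, SE, edgeR adjusted p = 0.00231). On the scale of library totals 6 were called higher and 2 lower with vehicle and 6 and 4 with D + Q, and Mdm4 and Usp7, which were called lower with vehicle, changed sign.

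Most partners that the inhibitors bind were higher in MOV. Of 12 cyclins and CDKs, 11 were called higher and 0 lower in MOV with vehicle, beside 30.7% and 29.8% of all genes. Their median log2 fold change was 2.08. D + Q mice had 11 higher and 1 lower, beside 34.4% and 30.9% of all genes, the median being 2.31. Of the 12, Ccne1, Ccnb1, Ccnb2 and Cdk1 reached the count minimum only in MOV mice, so their calls were bound to be rises. Of the other 8, 7 were called higher and 0 lower with vehicle (median 1.85) and 7 higher and 1 lower with D + Q (median 1.88). Among the genes of mitosis, Ccnb1 had 0 to 2 counts per vehicle sham mouse and 28 to 62 per vehicle MOV mouse, and Cdk1 had 0 to 6 and 41 to 78. Ccne2 was the exception, at -0.42 in both treatments, called lower with D + Q only (edgeR adjusted p = 0.00859) and not with vehicle (edgeR adjusted p = 0.0781). Among the targets of INK4 proteins, Cdk4 went from 22.4 ± 1.00 CPM in vehicle sham to 41.0 ± 5.85 CPM in vehicle MOV and Cdk6 from 1.55 ± 0.405 to 5.79 ± 1.29 CPM (SD, n = 5). Counts of 11 higher and 0 lower were also found for vehicle mice on the scale of library totals.

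Further downstream, 5 of 13 genes of the RB and E2F list were called higher and 3 lower with either treatment. Of all genes, 30.7% were called higher and 29.8% lower with vehicle, and 34.4% and 30.9% with D + Q. On the scale of library totals the list had 9 higher and 3 lower with vehicle and 10 and 3 with D + Q. E2f7 and E2f8 reached the count minimum with vehicle only in MOV mice. They had 0 to 6 and 2 to 7 counts per sham mouse and 21 to 33 and 32 to 67 per MOV mouse. Without them 3 of 11 were called higher and 3 lower with vehicle. With D + Q, E2f8 again reached the minimum only in MOV mice, and without it 4 of 12 were called higher and 3 lower. E2f1 (1.99 ± 0.399, SE, edgeR adjusted p = 0.000571) rose in vehicle mice, while Tfdp2 (-0.75 ± 0.108, SE, edgeR adjusted p = 3.06e-05), the repressive E2f6 (-0.66 ± 0.0764, SE, edgeR adjusted p = 3.16e-06) and the pocket protein gene Rbl2 (-0.66 ± 0.0906, SE, edgeR adjusted p = 1.72e-05) fell. Of the 5 genes listed around the turnover of p27, Cks1b rose by 1.79 ± 0.253 (SE, edgeR adjusted p = 2.13e-05) in vehicle mice. Skp2 and Cks2 reached the count minimum there only in MOV mice, with 4 to 8 and 0 to 7 counts per sham mouse and 27 to 69 and 20 to 52 per MOV mouse, whereas Skp1 (-0.34) and Cul1 (-0.23) were called lower on the TMM scale but were above 0 and not called on that of library totals. Of 13 tested genes of cycling cells, 11 were called higher and 1, Mcm2 (-0.46 ± 0.132, SE, edgeR adjusted p = 0.00675), lower in vehicle mice. Top2a, Birc5 and Aurkb reached the count minimum with vehicle only in MOV mice, and of the other 10 genes 8 were called higher and 1 lower. With D + Q, Birc5 and Aurkb reached it only in MOV mice, and of the other 11 genes 9 were called higher and 0 lower. Aurkb had 0 to 2 counts per vehicle sham mouse and 13 to 37 per vehicle MOV mouse, Top2a had 1 to 8 and 70 to 205, and Mki67 rose by 4.49 ± 0.348 (SE, edgeR adjusted p = 1.24e-07).

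**Figure D5:**
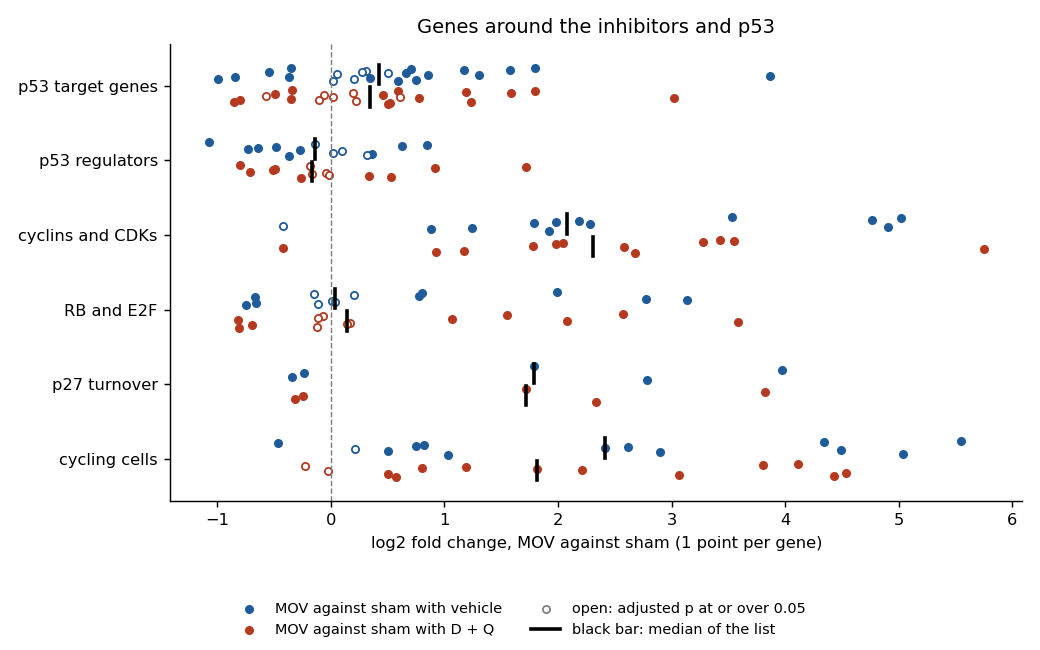
Log2 fold change of MOV against sham (horizontal axis), 1 point per gene, for 6 lists of genes (vertical axis) in vehicle mice (blue) and D + Q mice (red), filled where the adjusted p is under 0.05, with the list's median as a black bar. Cyclins and CDKs have medians of 2.08 and 2.31, or 1.85 and 1.88 without the 4 genes that reached the count minimum only in MOV mice, while p53 targets and p53 regulators spread to both sides of 0.

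Between D + Q and vehicle, no gene of these 6 lists was called in MOV or in sham muscle by edgeR. At an unadjusted p under 0.05 in MOV muscle, Apaf1 (0.34) and Mdm4 (0.18) were higher and Perp (-1.27), Gadd45a (-0.53), Sesn1 (-0.24), Mcm6 (-0.35) and Mcm7 (-0.26) lower with D + Q, each at an edgeR adjusted p of 0.522 or more. In sham muscle Ccnd2 (0.30) was higher and E2f2 (-0.81), Trp53inp1 (-0.46), Rb1 (-0.16) and Tigar (-0.15) lower, of which E2f2 came nearest to a call (edgeR adjusted p = 0.0564).

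The genes whose mouse-to-mouse variation was most like that of each member are given as a description. For this, each group's mean log2 CPM was subtracted, and Pearson's r and Spearman's rho were taken over the 20 mice, whose values share the same scaling by depth. The nearest genes had the highest r among 15700 tested genes, so part of their height comes from that choice, and they were not tested. Cdkn2a had 0 to 4 counts per sham mouse, so its variation among sham mice was that of a few reads. Cdkn2a was nearest to P3h3 (r = 0.884, rho = 0.882), Tagln2 (r = 0.869, rho = 0.840) and Srpx2 (r = 0.865, rho = 0.857). Cdkn1c was nearest to Tbc1d2b (r = 0.862, rho = 0.814), Myof (r = 0.859, rho = 0.765) and Bicc1 (r = 0.852, rho = 0.832), and Cdkn1a to Gabrd (r = 0.845, rho = 0.798).

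Among the genes near Ccng1 were Usp15 (r = 0.865, rho = 0.860) and Fundc2 (r = 0.859, rho = 0.886). The nearest to Mdm2 was Rabgef1 (r = 0.862, rho = 0.838), and the nearest to Trp53 was Gpr4 (r = 0.850, rho = 0.794). Cdkn2c was nearest to the ribosomal protein genes Rps4x, Rpl13 and Rps12 (r = 0.831 to 0.842), and Cdkn2d to Ndufb11, Cox14 and Ndufb4c (r = 0.799 to 0.815). For Cdkn2b and Cdkn1b the nearest were Rbms3 (r = 0.828, rho = 0.744) and Klhl22 (r = 0.771, rho = 0.800). Among the 45 pairs of members themselves, r within groups was highest for the neighbours Cdkn2a and Cdkn2b (0.659) and lowest for Cdkn1c and Mdm2 (-0.702), and it lay between -0.68 and 0.39 for every other pair.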

How the data were processed

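Plantaris RNA of 20 mice was sequenced by the submitters, and the deposited values are estimated counts per gene, which the authors made with STAR 2.7.8a on GRCm39 in the Partek E/M quantifier and which were rounded to whole numbers before testing (29.8% were not whole). No row summed to under 10. Whether counting used strand is not given in the sources used here. Library totals were 17887532 to 26234518 counts. Here, a gene entered a fit if 5 or more of its mice had 10 or more counts, and was tested with edgeR 4.0.16 in R 4.3.3 (TMM factors, robust quasi-likelihood test, Benjamini-Hochberg adjustment over all genes, threshold 0.05). CPM used TMM factors over all mice, which were 0.829 to 0.886 in sham and 1.06 to 1.24 in MOV. Log2 CPM had a prior count of 2. Single genes were also tested by two-sided exact permutation over all divisions of the 10 mice. Counting intervals cover counting error only.

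Members and gene lists were chosen with earlier results of these data known. From each list the 3 genes with the largest called rises and falls in vehicle mice were named, and every gene whose unadjusted p for D + Q against vehicle was under 0.05. Alternatives were other size factors, library totals alone, no minimum, the default edgeR filter, DESeq2 1.42.0, limma-voom 3.58.1 with sample quality weights, 1 fit of all mice, a replicate block and leaving out each mouse. The code was tested on simulated data. No protein sequence was used here. One result of the likeness ranking is not reported here.

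The labels number the mice of every group 1 to 5. Deviations of same-numbered mice had correlations of -0.15 to 0.185, with at most 1 of 5 pairs over 0.1 in a comparison, so the numbers were not taken to pair the mice. Labels give separate samples but do not describe batches, and p-values measure the spread between these mice.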

Additional observations from a re-analysis of the deposited data

Results flagged for a closer look

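Cdkn2a in D + Q sham replicate 2 lay far from the other mice of its group, at 0.243 CPM (4 counts), where the next mouse had 0.0486 CPM (1 count) and the other 3 had 0. Of 40 groups of 5 mice checked over the 10 genes, this was the 1 value so far from the rest, and chance flags about 1 in 20 groups. The same mouse had the highest summed fibroblast markers (947 CPM) and macrophage markers (138 CPM) of the sham mice, whose part in the value was not tested.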

How the results depend on the processing

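The number of members called kept within 1.5 times of the reported number in every comparison and alternative, except that DESeq2 called 1 member (Cdkn1c) in sham muscle between D + Q and vehicle, where edgeR called 0. With the replicate block the members called numbered 6 and 8 in MOV against sham with vehicle and with D + Q, and 0 in the other comparisons. The block changed 1 call of a member, Mdm2 with D + Q (-0.15, edgeR adjusted p = 0.0678). Over all genes, DESeq2 called 11 between D + Q and vehicle in MOV (edgeR 0) and 133 in sham (edgeR 30). The cause of these differences was not tested.

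Scaling by library totals alone, which moves all genes up in MOV, turned Cdkn1b to 0.21 with vehicle and 0.35 with D + Q, Mdm2 to 0.22 and 0.21, and Cdkn2c with vehicle to 0.15 in MOV against sham. Other differences that changed sign lay near 0 (log2 scale, none called). Between D + Q and vehicle in MOV, they were Cdkn1a (0.00019), Trp53 (0.038), Mdm2 (0.050) and Ccng1 (0.049) with library totals, Trp53 (0.013), Mdm2 (0.016) and Ccng1 (0.00727) with limma-voom, and Mdm2 (0.00035) and Ccng1 (0.0013) in the fit of all mice. In sham, Ccng1 became 0.0014 with DESeq2 size factors, 0.037 with library totals, 0.0042 without a minimum, 1.1e-06 with the default filter, 0.0013 with DESeq2, 0.0094 with limma-voom and 0.012 with all mice. The interaction of Ccng1 became 0.0014, 0.012 and 0.0016 with DESeq2 size factors, library totals and DESeq2, and that of Mdm2 0.012 with limma-voom.

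Without 1 mouse, Cdkn1b with D + Q ran from -0.043 to 0.041. Between D + Q and vehicle in MOV, Cdkn1a ran from -0.13 to 0.018, Cdkn2a from -0.16 to 0.58, Cdkn2b from 0.12 to 0.41, Trp53 from -0.065 to 0.010, Mdm2 from -0.049 to 0.039 and Ccng1 from -0.043 to 0.044. In sham, Cdkn2b ran from -0.38 to 0.11, Mdm2 from -0.011 to 0.051 and Ccng1 from -0.033 to 0.019. The interaction ran from -1.33 to 0.85 for Cdkn2a, above 0 only without D + Q sham replicate 2, from -0.0094 to 0.084 for Trp53 and from -0.041 to 0.040 for Ccng1. Calls in MOV against sham changed for Cdkn1b without vehicle sham replicate 5 (edgeR adjusted p = 0.0333), Cdkn2c without vehicle MOV replicate 4 (0.0307) and Mdm2 without vehicle MOV replicate 2 (0.0367), and Mdm2 with D + Q lost its call in 7 of 10 fits. Cdkn1b and Mdm2 with vehicle were also called by limma-voom and in the fit of all mice. With a D + Q MOV mouse left out, Cdkn2a fell under the count minimum and could not be tested against sham. Cdkn2a and Cdkn2b are limited by low counts.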
